A study of Homo sapiens with 8 samples.

Results

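Small nucleolar RNA (snoRNA) host genes were followed across control and MYCL-altered prostate cancer cells. The set held 10 genes that were chosen by name: GAS5, SNHG1, SNHG5, SNHG6, SNHG8, SNHG12, SNHG15, SNHG29, ZFAS1 and EPB41L4A-AS1. These genes and the gene lists below were chosen with earlier results of these data known. Shares and medians set beside those of all genes are thus a description and no independent test. Each name occurred in 1 row of the 78691 genes of the count table, and all 10 passed edgeR's filter on low counts in every comparison. Host genes carry snoRNAs in their introns. After splicing, the snoRNAs join proteins of the nucleolus and guide ribose methylation (box C/D type) or pseudouridylation (box H/ACA type) of ribosomal RNA, whereas the joined exons of these 10 genes form RNAs that are mostly not translated into a known protein. Many such exonic RNAs start with a terminal oligopyrimidine (TOP) tract, as ribosomal protein mRNAs do, and are degraded by nonsense-mediated decay when ribosomes load onto them. Their level thus depends on transcription and on turnover, and the poly(A) libraries measured here hold the exonic RNA and not the snoRNA.

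The libraries came from 4 conditions with 2 libraries each. C4-2B cells, a line of castration-resistant prostate adenocarcinoma, were transduced with empty lentivirus (control) or with lentivirus that drives human MYCL and EGFP from the EF1A promoter. NCI-H660 cells, a line of neuroendocrine prostate cancer, carried either a non-targeting shRNA (shCtrl) or shRNA against MYCL (shMYCL). The series' design text names adenoviral delivery for the knockdown, while the sample descriptions speak of stable expression or knockdown. No time point or passage was given for the libraries. Whether 2 libraries of a condition came from separate cultures is stated for the C4-2B control alone, where they are called biological replicates, so the p-values measure the spread between these libraries, which may be technical. The cells were cultured and sequenced as bulk samples, in which fewer cells of a type and less RNA per cell cannot be told apart.

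Library totals ran from 15177071 to 32344170 counts, and mitochondrial genes took 9.63% to 10.7% of counts in C4-2B and 3.50% to 3.83% in NCI-H660 libraries. The 10 host genes together took 0.0855% to 0.105% of counts in C4-2B and 0.0476% to 0.0654% in NCI-H660. Marker sums are given in CPM over the library total, without further scaling. All 7 luminal prostate markers exceeded 1 CPM in C4-2B, with a sum of 3795 to 3806 CPM in control and 2829 to 3033 CPM with MYCL, against 1.82 to 3.82 CPM in NCI-H660. The sum of 7 neuroendocrine markers was 0.985 to 2.05 CPM in C4-2B, 1607 to 1718 CPM in shCtrl and 1272 to 1383 CPM in shMYCL libraries. A list of 8 markers of leukocytes, fibroblasts and endothelium summed to 19.3 to 21.9 CPM in C4-2B control and 42.8 to 46.2 CPM with MYCL, most of the latter from CD68, and to 107.5 to 109.5 CPM in shCtrl and 64.3 to 69.5 CPM in shMYCL libraries, most of it from COL1A2. The leukocyte markers PTPRC and CD3E had at most 2 counts in any library. These sums thus moved with the MYCL manipulation in both lines, and their part in the host gene results was not tested. MYCL itself stood at 12.1 and 14.2 CPM in C4-2B control, 3733 and 4242 CPM in C4-2B MYCL, 104.2 and 81.8 CPM in shCtrl and 10.3 and 11.99 CPM in shMYCL libraries, as labelled. For MYCL and for all host genes, CPM are counts scaled to library size after TMM scaling over all 8 libraries.

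The start regions of the host genes are shown first, because a pyrimidine run around the start and E-box letters upstream of it were searched in them. RefSeq promoters (GRCh38.p14) were matched for 8 of the 10 genes. In the 60-base windows of 6 of them below, from 20 bases before the start to 39 after it on the gene's own strand, capitals mark the longest run of C or T between 20 bases before and 20 after the start.
GAS5, chr1:173869006-173869065, minus strand: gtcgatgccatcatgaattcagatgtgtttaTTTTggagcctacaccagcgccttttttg
SNHG5, chr6:85678694-85678753, minus strand: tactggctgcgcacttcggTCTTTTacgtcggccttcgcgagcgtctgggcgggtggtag
SNHG8, chr4:118278742-118278801, plus strand: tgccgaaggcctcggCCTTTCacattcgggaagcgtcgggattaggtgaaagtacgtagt
SNHG29, chr17:16438967-16439026, plus strand: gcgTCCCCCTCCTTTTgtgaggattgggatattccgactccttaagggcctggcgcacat
ZFAS1, chr20:49278622-49278681, plus strand: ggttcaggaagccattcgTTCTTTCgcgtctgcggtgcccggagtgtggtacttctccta
EPB41L4A-AS1, chr5:112160506-112160565, plus strand: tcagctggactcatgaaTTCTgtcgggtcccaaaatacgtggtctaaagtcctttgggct
SNHG29 held the longest run of these 6, with 13 bases. The runs of SNHG12 and SNHG1 were 12 and 7 bases, that of ZFAS1 was 7, those of SNHG5 and SNHG8 were 6, and those of GAS5 and EPB41L4A-AS1 were 4. A run need not cover the start. Those of SNHG29 and SNHG1 ended before it and that of GAS5 began after it, so the length of a run does not show a TOP tract. Over all 35116 RefSeq promoters the median longest run was 5 bases, 38.8% held a run of at least 6 and 25.6% a run of at least 7. The RefSeq start of GAS5, at position 173869045 of chromosome 1, lies beyond the 5′ edge of the gene in GENCODE 44, at position 173868882, so its window does not show the GENCODE start. For SNHG1, SNHG5, SNHG8, SNHG12, SNHG29 and ZFAS1 the RefSeq start lies inside the GENCODE gene, whose 5′ edge falls outside the window. Only EPB41L4A-AS1 has the same start in both.

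MYC family proteins bind E-boxes with partner MAX, and the letters searched in the 300-base promoters were CACGTG, the canonical E-box, and CACGCG on both strands (CGCGTG on the other). CACGTG was in none of the 8 promoters and in 7.26% of all promoters. CACGCG was in 3 of the 8, those of SNHG12, SNHG1 and SNHG29, and in 11.4% of all. SNHG12 held it at 2 places, whose first bases lay 150 and 73 bases before the start, and 2.04% of all promoters held it at least that often. Matches on the 2 strands that overlap each other count as 2 places in that share. The promoters of SNHG1 and SNHG12 are printed whole, with the matches in capitals, because these genes had the lowest log2 fold changes of the set in MYCL-overexpressing C4-2B cells.
SNHG1, chr11:62855836-62856135, minus strand: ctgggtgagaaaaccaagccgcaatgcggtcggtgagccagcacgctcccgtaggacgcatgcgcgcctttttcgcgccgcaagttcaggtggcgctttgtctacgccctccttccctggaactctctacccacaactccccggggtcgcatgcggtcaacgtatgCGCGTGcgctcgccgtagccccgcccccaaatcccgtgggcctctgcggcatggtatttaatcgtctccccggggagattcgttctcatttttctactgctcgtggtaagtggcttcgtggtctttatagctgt
SNHG12, chr1:28581824-28582123, minus strand: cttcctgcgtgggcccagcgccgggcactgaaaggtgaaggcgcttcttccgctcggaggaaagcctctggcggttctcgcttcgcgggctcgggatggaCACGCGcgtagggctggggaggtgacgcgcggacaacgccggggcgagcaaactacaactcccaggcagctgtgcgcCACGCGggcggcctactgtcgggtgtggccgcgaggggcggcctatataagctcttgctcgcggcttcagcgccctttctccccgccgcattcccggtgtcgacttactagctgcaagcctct
A match of letters is a description of the sequence and no binding was measured here. The match in SNHG1 began 84 and that in SNHG29 145 bases before the start. The start meant here is that of RefSeq. By the bounds of GENCODE 44 the matches of SNHG12 and SNHG29 lie inside the gene. SNHG29, whose promoter is not printed whole, went the other way with MYCL in C4-2B cells, with a log2 fold change of 0.35 (edgeR adjusted p = 0.00445).

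**Figure D1:**
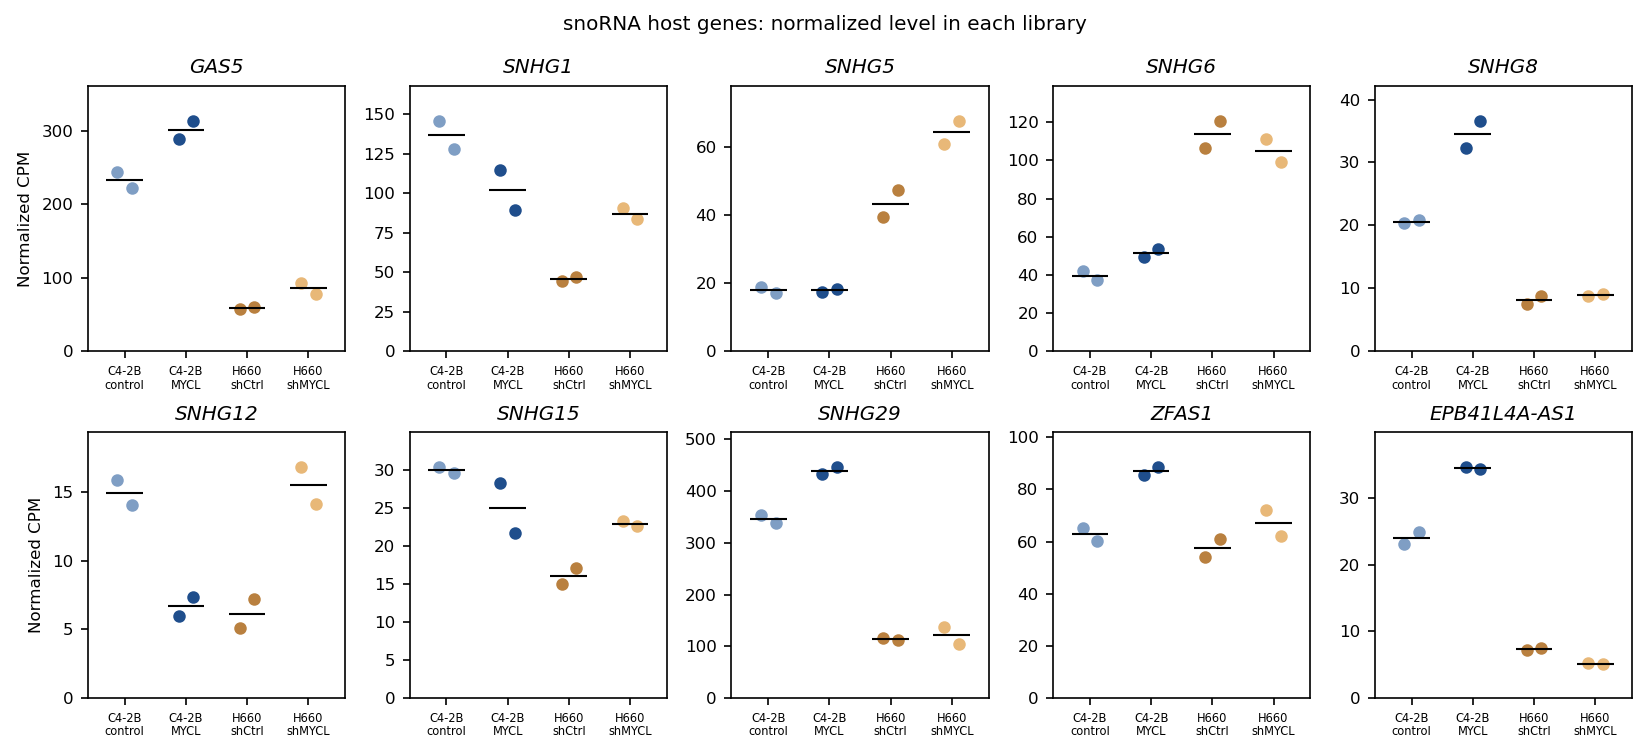
Normalized CPM (y axis, linear from 0, with its own range in each panel) of the 10 host genes in the 4 conditions, 1 point per library and a line at each group's mean. SNHG12 was at 15.9 and 14.1 CPM in C4-2B control and at 5.98 and 7.37 CPM with MYCL, and GAS5, SNHG8, SNHG29 and EPB41L4A-AS1 were lower in all NCI-H660 than in all C4-2B libraries.

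The first question was which host genes change when MYCL is raised in C4-2B cells, whose control libraries held less of it than shCtrl NCI-H660 libraries. In C4-2B cells, MYCL overexpression lowered SNHG12 and raised SNHG8 and EPB41L4A-AS1, and 5 further members moved by smaller amounts. A gene was called when its adjusted p was under 0.05 and its log2 fold change was at least 0.5 in size. By this rule 3 of the 10 members were called, 2 higher and 1 lower, against 19.9% of all genes tested (11.8% higher and 8.12% lower). The balance turned on log2(TPM + 1), a scale on which all genes had a median of −0.14. There 1 member was called higher (EPB41L4A-AS1) and 2 lower (SNHG12 and SNHG1), beside 1006 genes higher and 1997 lower over all (1986 and 1369 on counts). The filters differ between TPM and counts, so these numbers rest on different sets of genes and are not shares. On counts without the minimum fold, 8 of 10 passed, 6 higher and 2 lower, against 35% of all genes. The median log2 fold change of the 10 was 0.36, while that of all genes was 0.00. The groups did not overlap for 9 of the 10 members, against 69.5% of all genes.

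SNHG12, which carries SNORA16A, SNORA44, SNORA61 and SNORD99 (chromosome 1, 28578538 to 28583132, minus strand), was at 15.9 and 14.1 CPM in control and at 5.98 and 7.37 CPM in MYCL libraries. Both MYCL libraries were thus below both controls, by more than the spread within either group. The log2 fold change was −1.16 (SE 0.16, edgeR adjusted p = 0.000701). SNHG1, the host of SNORD22, SNORD25 to SNORD28 and SNORD30 in GENCODE 44 (chromosome 11, 62851978 to 62855953, minus strand), was at 145.8 and 128.0 CPM in control and at 114.6 and 89.5 CPM with MYCL. Its groups did not overlap, but the MYCL libraries differed from each other by more than the gap between the groups. The log2 fold change of −0.42 (SE 0.12, edgeR adjusted p = 0.0233) was under the minimum fold, and without MYCL replicate 1 it was −0.60 and without MYCL replicate 2 it was −0.25. On log2(TPM + 1) it was −0.55 and was called lower (limma adjusted p = 0.0243).

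SNHG8, which carries SNORA24 (chromosome 4, 118278703 to 118285316, plus strand), rose from 20.3 and 20.9 CPM to 32.4 and 36.7 CPM. The log2 fold change was 0.75 (SE 0.10, edgeR adjusted p = 0.000636). On log2(TPM + 1) its change was 0.20 (limma adjusted p = 0.0602), so that the call was lost on a length-scaled level. EPB41L4A-AS1, a noncoding RNA antisense to EPB41L4A that holds SNORA13 (chromosome 5, 112160526 to 112164818, plus strand), rose from 23.1 and 24.9 CPM to 34.7 and 34.5 CPM. Its log2 fold change of 0.54 (SE 0.09, edgeR adjusted p = 0.00227) lay near the minimum fold, and it was 0.47 without control replicate 1.

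GAS5, SNHG29, ZFAS1 and SNHG6 also lay higher with MYCL in C4-2B cells, with adjusted p under 0.05 but folds below the minimum. GAS5, a transcript named for its accumulation in growth-arrested cells (chromosome 1, 173858559 to 173868882, minus strand), was at 243.7 and 222.1 CPM in control and at 288.9 and 314.1 CPM with MYCL, with a log2 fold change of 0.38 (SE 0.08, edgeR adjusted p = 0.00587). SNHG29, which holds SNORD49A, SNORD49B and SNORD65 (chromosome 17, 16438767 to 16480249, plus strand), was at 353.3 and 337.5 CPM against 432.8 and 446.4 CPM, a log2 fold change of 0.35 (SE 0.07, edgeR adjusted p = 0.00445). ZFAS1, host of the SNORD12 family and antisense to the start of ZNFX1 (chromosome 20, 49278178 to 49299600, plus strand), was at 65.3 and 60.4 CPM against 85.7 and 88.6 CPM. Its log2 fold change of 0.48 (SE 0.08, edgeR adjusted p = 0.00181) reached 0.53 without control replicate 1 and 0.51 without MYCL replicate 1. SNHG6, the host of SNORD87 on chromosome 8, was at 42.2 and 37.2 CPM against 49.2 and 53.5 CPM, with a log2 fold change of 0.37 (SE 0.09, edgeR adjusted p = 0.0139), and of 0.04 on log2(TPM + 1) (limma adjusted p = 0.864).

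Neither remaining member passed the test in C4-2B cells. SNHG15, the host of SNORA9 (chromosome 7, 44983019 to 44986961, minus strand), was at 30.4 and 29.7 CPM in control and at 28.3 and 21.7 CPM with MYCL, a log2 fold change of −0.26 (SE 0.13, edgeR adjusted p = 0.143). SNHG5, which holds SNORD50B (chromosome 6, 85650491 to 85678932, minus strand), was at 18.8 and 17.0 CPM against 17.5 and 18.2 CPM, so the groups overlapped and the log2 fold change was 0.00 (SE 0.11, edgeR adjusted p = 0.995).

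The second question was what happens to the same genes when MYCL is lowered in NCI-H660 cells, which express more of it. In NCI-H660 cells, shMYCL raised SNHG12, SNHG1, SNHG5, GAS5 and SNHG15, and no member was called lower in the fit of this line. In a fit of all 4 groups 6 members were called, with the addition of EPB41L4A-AS1, which was then lower (−0.53, edgeR adjusted p = 0.0217). That fit called 2518 of 19605 genes, 1153 higher and 1365 lower. The 5 of 10 in the fit of this line compare with 16.2% of all genes called (7.18% higher and 8.99% lower). The same 5 genes, and no others, passed without the minimum fold, against 24.8% of all genes. The median log2 fold change of the 10 members was 0.36, beside 0.00 over all genes, and 8 of the 10 had groups that did not overlap, against 63.1% of all genes. On log2(TPM + 1) only 2 members, SNHG12 and SNHG1, were called, beside 786 genes higher and 916 lower over all. The calls of SNHG5, GAS5 and SNHG15 were lost on that scale. On unfiltered log2(TPM + 1) no member was called, where limma called 1 gene over all.

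SNHG12 was at 5.09 and 7.20 CPM in shCtrl and at 16.8 and 14.2 CPM in shMYCL libraries, so both knockdown libraries stood well above both controls. The log2 fold change was 1.33 (SE 0.19, edgeR adjusted p = 0.000161). SNHG1 rose from 44.7 and 47.1 CPM to 90.7 and 83.3 CPM, a log2 fold change of 0.92 (SE 0.11, edgeR adjusted p = 2.89e-05). These 2 genes kept their call without any single library. SNHG5 rose from 39.3 and 47.2 CPM to 60.9 and 67.6 CPM, with a log2 fold change of 0.57 (SE 0.12, edgeR adjusted p = 0.00312). It was 0.45 without shCtrl replicate 1 and 0.49 without shMYCL replicate 2, both under the minimum fold.

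GAS5 rose from 58.2 and 60.7 CPM to 93.0 and 78.4 CPM, a log2 fold change of 0.52 (SE 0.11, edgeR adjusted p = 0.00338), and the knockdown libraries differed from each other by more than the control libraries did. Without shMYCL replicate 1 it was 0.41 (edgeR adjusted p = 0.0952) and without shCtrl replicate 1 it was 0.50 and just under the minimum fold. SNHG15 rose from 14.9 and 17.2 CPM to 23.3 and 22.6 CPM, a log2 fold change of 0.51 (SE 0.14, edgeR adjusted p = 0.012). Its call was lost without shMYCL replicate 1 (0.50, adjusted p = 0.0735), without shMYCL replicate 2 (0.53, adjusted p = 0.0551), without shCtrl replicate 1 (0.42) and in DESeq2 (0.52, adjusted p = 0.0632).

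The other 5 members did not pass. EPB41L4A-AS1 was at 7.27 and 7.50 CPM in shCtrl and at 5.18 and 5.03 CPM in shMYCL libraries, with the knockdown libraries below both controls and a log2 fold change of −0.54 (SE 0.21, edgeR adjusted p = 0.0728). ZFAS1 was at 54.2 and 61.0 CPM against 72.1 and 62.1 CPM, a log2 fold change of 0.22 (SE 0.12, edgeR adjusted p = 0.193). SNHG8 was at 7.50 and 8.73 CPM against 8.80 and 9.08 CPM, a log2 fold change of 0.14 (SE 0.18, edgeR adjusted p = 0.639). For SNHG29 and SNHG6 the groups overlapped. SNHG29 was at 115.0 and 111.1 CPM against 136.9 and 104.7 CPM (log2 fold change 0.09, SE 0.12, edgeR adjusted p = 0.626). SNHG6 was at 106.5 and 120.8 CPM against 111.4 and 99.0 CPM (log2 fold change −0.12, SE 0.11, edgeR adjusted p = 0.485).

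**Figure D2:**
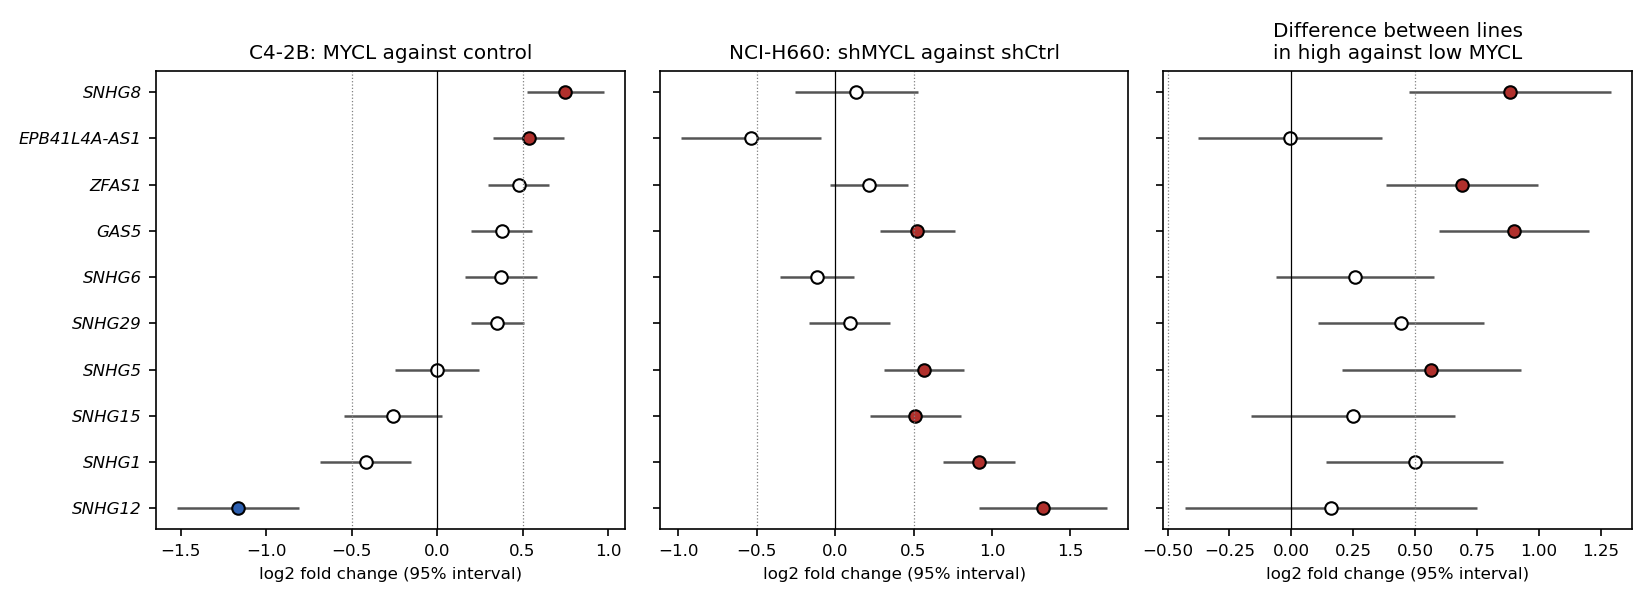
Log2 fold change of the 10 host genes with MYCL in C4-2B (left), with shMYCL in NCI-H660 (middle) and the difference between lines in high against low MYCL (right). Points are edgeR estimates (red called higher, blue called lower, white not called), bars are 95% intervals and dotted lines mark the minimum fold of 0.5. SNHG12 lay at −1.16 with MYCL in C4-2B and at 1.33 with shMYCL in NCI-H660, whereas GAS5 was above 0 in both.

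Raising MYCL in one line and lowering it in the other gives opposite contrasts, so the members were also set on a common direction of high against low MYCL. By the MYCL values given above, the change in MYCL was far larger in C4-2B, by overexpression, than in NCI-H660, by knockdown. Line, size and kind of the MYCL change cannot be told apart in a difference between the lines. SNHG12 was the single member called lower with MYCL in C4-2B and higher with shMYCL in NCI-H660, a pattern seen in 0.957% of the 14212 genes tested in both lines. No member was called higher with MYCL and lower with shMYCL (1.8% of genes) in the fits of each line, whereas in the fit of all 4 groups EPB41L4A-AS1 was (0.53 in C4-2B, edgeR adjusted p = 0.00318, and −0.53 in NCI-H660). The interaction was tested in a fit of all 8 libraries as the change of high against low MYCL in C4-2B minus that in NCI-H660, and 4 of 10 members were called, all with a positive difference, against 17.9% of all genes (9.59% positive and 8.33% negative). On log2(TPM + 1) 2 members were called, both positive, beside 1054 positive and 1902 negative calls over all genes (1880 and 1633 on counts). These numbers rest on different sets of genes, since the filters of TPM and counts differ. On counts without the minimum fold 5 passed, against 20.2% of all genes.

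For GAS5 the change with high against low MYCL was 0.90 higher on the log2 scale in C4-2B than in NCI-H660 (edgeR adjusted p = 0.000832), with values above 0 for MYCL against control and for shMYCL against shCtrl. SNHG8 differed by 0.88 (edgeR adjusted p = 0.00578), ZFAS1 by 0.69 (edgeR adjusted p = 0.00472) and SNHG5 by 0.57 (edgeR adjusted p = 0.0307). SNHG1 differed by 0.50 (edgeR adjusted p = 0.049), just under the minimum fold. For SNHG12 the difference was 0.16 with a 95% interval from −0.43 to 0.75 (edgeR adjusted p = 0.765), and for EPB41L4A-AS1 it was −0.01 with an interval from −0.38 to 0.37. These intervals leave room for differences of some size between the lines. SNHG29 (0.44, edgeR adjusted p = 0.0606), SNHG6 (0.26, edgeR adjusted p = 0.253) and SNHG15 (0.25, edgeR adjusted p = 0.404) did not pass.

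**Figure D3:**
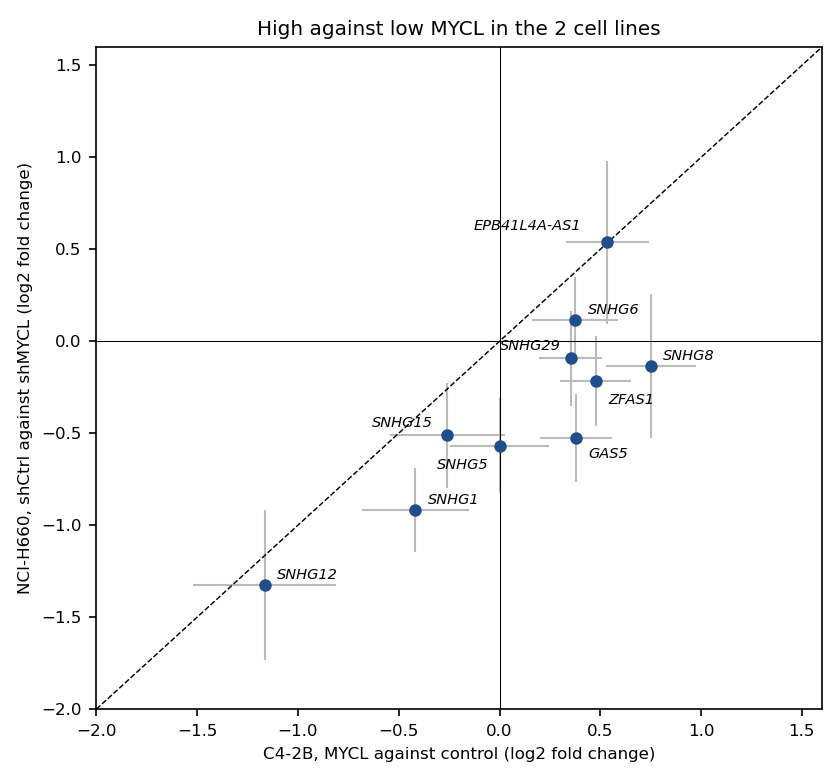
Log2 fold change of high against low MYCL in C4-2B (x axis) and NCI-H660 (y axis) for each host gene, with 95% intervals as bars and a dashed line where both are equal. SNHG12 lies far below 0 on both axes, EPB41L4A-AS1 on the line above 0, and GAS5, SNHG8 and ZFAS1 below the line.

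Between the control cells, the lines differed in almost every host gene. In shCtrl NCI-H660 against control C4-2B cells, 9 of 10 members were called, 2 higher and 7 lower, against 69.8% of all genes (36.5% higher and 33.3% lower). The same 9 members passed without the minimum fold, against 77.8% of all genes (40.5% higher and 37.3% lower). Their median log2 difference was −1.31, while that of all genes was 0.03. Line, culture and vector cannot be told apart in this comparison. On counts GAS5 was lowest in NCI-H660 relative to C4-2B, with a log2 difference of −1.97, followed by EPB41L4A-AS1 (−1.70), SNHG29 (−1.61), SNHG1 (−1.58), SNHG8 (−1.34), SNHG12 (−1.28) and SNHG15 (−0.90). SNHG6 (1.52) and SNHG5 (1.27) were higher in NCI-H660, and ZFAS1 did not pass (−0.13, edgeR adjusted p = 0.265). The median of all genes itself lay at 0.52 on log2(TPM + 1), and on that scale SNHG15 (0.59) and ZFAS1 (0.45) took the opposite sign. The order changed as well, with SNHG8 (−1.83) and EPB41L4A-AS1 (−1.73) lowest and GAS5 at −1.09, SNHG29 at −1.02, SNHG1 at −0.74 and SNHG12 at −0.59. There 3 members were called higher and 6 lower, beside 8749 genes higher and 3560 lower over all (7150 and 6537 on counts). Here too the sets of genes tested differ between TPM and counts.

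Levels of different genes were compared by TPM, which are scaled for transcript length. In C4-2B control cells GAS5 was the most abundant member, at 486.3 and 504.5 TPM, ahead of SNHG29 (418.2 and 432.1 TPM), ZFAS1 (187.3 and 191.7 TPM) and SNHG1 (66.3 and 72.4 TPM). SNHG6 and SNHG8 followed with overlapping ranges, then EPB41L4A-AS1 and SNHG5, which overlapped too. SNHG15 and SNHG12 came last and overlapped, with SNHG12 at 21.5 and 24.5 TPM. With MYCL the first 3 places stayed as they were, EPB41L4A-AS1 (53.8 and 61.5 TPM), SNHG6, SNHG8 and SNHG1 (40.3 and 54.4 TPM) formed a chain of overlapping neighbours, and SNHG12 was last at 9.60 and 10.3 TPM.

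In shCtrl NCI-H660 cells ZFAS1 led at 256.2 and 263.8 TPM, followed by GAS5 (225.0 and 238.1 TPM), SNHG6 (229.8 and 230.0 TPM) and SNHG29 (196.6 and 221.8 TPM), of which GAS5 and SNHG6 overlapped. SNHG5 was at 109.0 and 125.2 TPM, and SNHG1 and SNHG15 came next. SNHG12, SNHG8 and EPB41L4A-AS1 closed the order with overlapping neighbours. With shMYCL GAS5 (302.2 and 351.5 TPM) and ZFAS1 (273.2 and 326.4 TPM) overlapped at the top, SNHG6 and SNHG29 overlapped below them, and SNHG12, at 33.2 and 41.96 TPM, stood clear of SNHG8 and of EPB41L4A-AS1 (3.73 and 6.64 TPM).

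Host genes have many spliced forms, and GENCODE 44 lists between 8 transcripts for SNHG6 and 91 for GAS5. The ratio of counts to TPM of a gene, divided by the median ratio in its library, gives the length implied by the quantification, relative to other genes. For GAS5 this relative length was 0.202 in C4-2B control and 0.172 with MYCL, a log2 shift of −0.23 with ranges that did not overlap. For SNHG8 it was 0.200 and 0.263, a shift of 0.40. Among 9247 genes the absolute shift had a median of 0.0166 and a 95th percentile of 0.172, and SNHG8 lay above 99.6% and GAS5 above 97.2% of them. SNHG29 and ZFAS1 shifted by 0.01 and −0.01. Which spliced forms lay behind a shift cannot be seen in gene-level tables.

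In NCI-H660 cells the relative length of SNHG5 was 0.236 in shCtrl and 0.278 in shMYCL libraries, and that of SNHG15 was 0.289 and 0.339, shifts of 0.24 and 0.23 with groups that did not overlap. The 95th percentile over all genes was 0.158. On log2(TPM + 1) the changes of SNHG5 and SNHG15 were 0.35 and 0.30 (limma adjusted p = 0.116 and 0.125), smaller than on counts. SNHG8 gave no stable length in shCtrl libraries, with 0.297 in one and 0.671 in the other, nor did EPB41L4A-AS1 in shMYCL libraries, with 0.494 and 0.890. In C4-2B cells EPB41L4A-AS1 was at 0.307 in control and 0.235 with MYCL. The implied length of SNHG15 was longer in C4-2B control (0.554) than in shCtrl NCI-H660 cells (0.289).

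**Figure D4:**
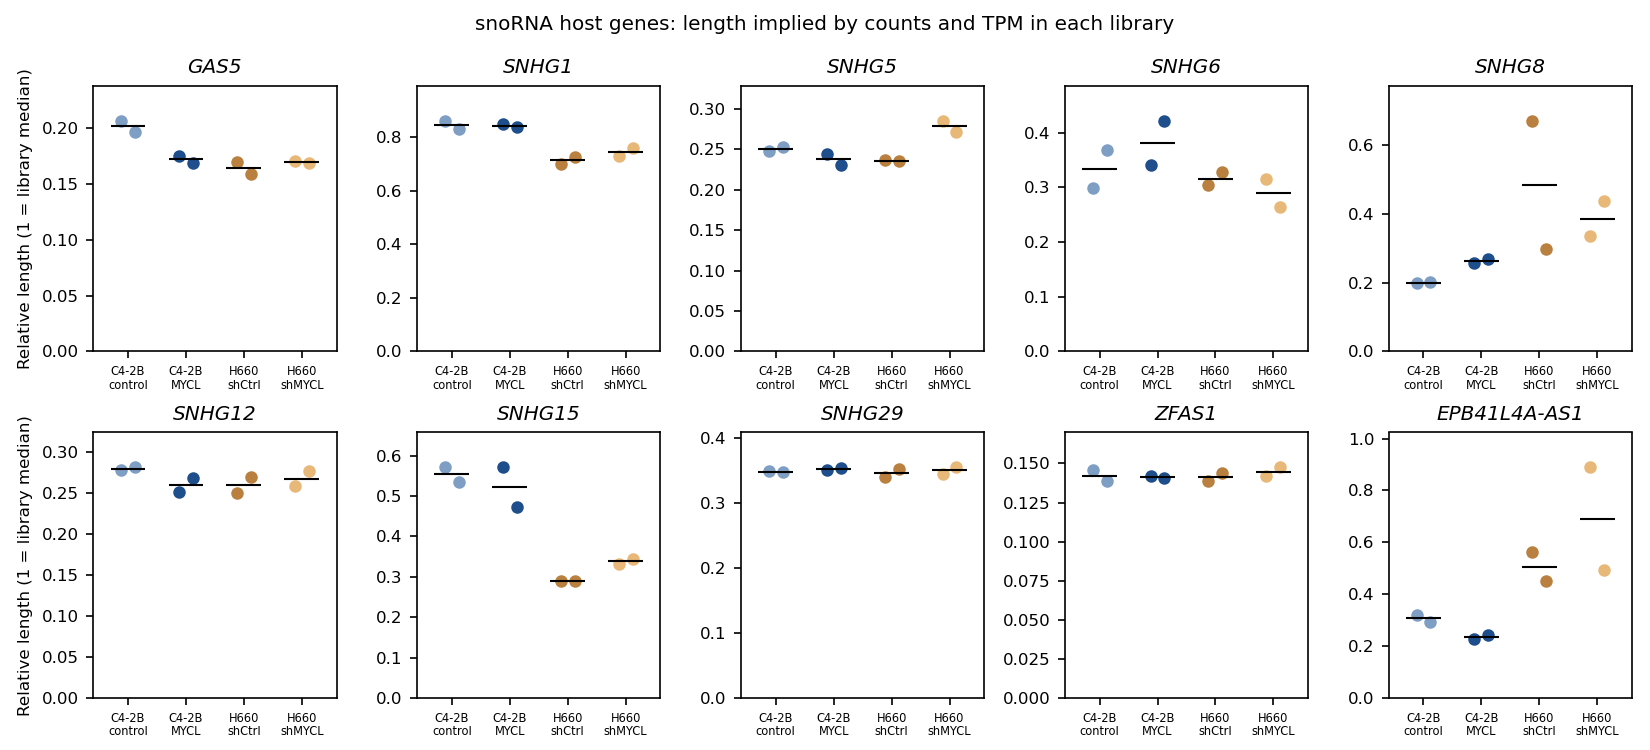
Relative implied length of each host gene, the ratio of counts to TPM over the library median (y axis from 0), in the 4 conditions, with 1 point per library and a line at each group's mean. SNHG8 moved from about 0.200 to 0.263 with MYCL in C4-2B, SNHG15 was near 0.554 in C4-2B control and 0.289 in shCtrl NCI-H660, and ZFAS1 and SNHG29 stayed nearly level.

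Several members share exon bases with genes on the other strand, and whether the counting used strand is not given in the sources used here, so reads of such pairs cannot be told apart. The share of a member's exon bases was 58.9% for SNHG6 with MCMDC2, 51.2% for EPB41L4A-AS1 with EPB41L4A, 37.6% for SNHG8 with PRSS12 and 5.59% for SNHG29 with LRRC75A. On its own strand SNHG5 shared 5.67% of its exon bases with the pseudogene PKMP3 and 7.48% with the protein-coding gene ENSG00000271793. In C4-2B libraries EPB41L4A and PRSS12 had at most 4 counts each, and MCMDC2 had 190 to 415. In NCI-H660 libraries EPB41L4A had 70 to 94, PRSS12 7 to 33 and MCMDC2 17 to 39 counts. None of these 3 genes was called in a line where it was tested. LRRC75A was called higher with shMYCL in NCI-H660 cells (0.64, edgeR adjusted p = 0.00083), where SNHG29 was at 0.09.

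Some host genes start close to a gene on the other strand. SLC3A2, the heavy chain of amino acid transporters, starts 51 bases from SNHG1 on the other strand, and rose with MYCL in C4-2B cells by 1.19 (SE 0.13, edgeR adjusted p = 0.000222), where SNHG1 was at −0.42. In NCI-H660 cells SLC3A2 was at 0.16 (edgeR adjusted p = 0.334), where SNHG1 rose by 0.92. ZNFX1, which starts 248 bases from ZFAS1 on the other strand, was at 0.18 in C4-2B (edgeR adjusted p = 0.13) and rose by 0.69 with shMYCL in NCI-H660 (edgeR adjusted p = 0.000399), where ZFAS1 was at 0.22. ZFAS1 shares 41% of its exon bases with other genes, 2.99% with ZNFX1, so the limit on strand given above holds for this pair too. ZBTB37, 800 bases from GAS5, passed in neither line (0.13 and −0.36). Further away, SYNCRIP starts 34869 bases from SNHG5 on the same strand. It was lower with MYCL in C4-2B cells (−0.68, edgeR adjusted p = 0.000215), where SNHG5 was at 0.00, and at −0.06 in NCI-H660 (edgeR adjusted p = 0.714). The distant neighbours TCF24, TRNAU1AP and CCM2 were not called in any line where they were tested. Whether the 2 genes of a pair differed from each other was not tested.

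The other noncoding host genes were a list of 18. The counts of called genes in this and the following lists are to be read against 11.8% of all genes higher and 8.12% lower in C4-2B, and 7.18% higher and 8.99% lower in NCI-H660. In C4-2B cells 16 were tested, of which 9 were lower with MYCL and 1 higher, with a median log2 fold change of −0.58 where all genes had 0.00. DANCR, a noncoding RNA that holds SNORA26 in its locus, fell by 1.25 (edgeR adjusted p = 4.11e-05), SNHG10 fell by 1.13 (edgeR adjusted p = 0.000273) and SNHG4 fell by 0.94 (edgeR adjusted p = 0.000165), whereas SNHG32 rose by 0.81 (edgeR adjusted p = 0.000158). In NCI-H660 cells 15 were tested and 1 rose, SNHG17 (0.63, edgeR adjusted p = 0.0073), and 1 fell, SNHG14 (−0.52, edgeR adjusted p = 0.00447), with a median of 0.02.

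Protein-coding hosts outside the ribosome were 16, all tested. With MYCL in C4-2B cells 6 were lower and none higher, with a median of 0.03, among them NCL (nucleolin, −0.90, edgeR adjusted p = 0.000109), DKC1 (dyskerin, the pseudouridine synthase of H/ACA particles, −0.75, edgeR adjusted p = 0.00017) and HSPA8 (a constitutive HSP70 chaperone, −0.72, edgeR adjusted p = 0.000362). With shMYCL in NCI-H660 cells 2 were higher, HSPA8 (0.85, edgeR adjusted p = 5.35e-05) and TAF1D (a subunit of the RNA polymerase I selectivity factor, 0.54, edgeR adjusted p = 0.0101), with a median of 0.21. HSPA8 was thus called in opposite directions in the lines, as SNHG12 was.

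Of 21 ribosomal protein genes that host snoRNAs, 2 were higher with MYCL in C4-2B cells, RPL12 (0.65) and RPL3 (0.58), and none was called in NCI-H660 cells, with medians of 0.37 and −0.01. Of 14 other translation genes with a TOP start, EIF3L (0.57) and EEF1G (0.52) were higher in C4-2B and none was called in NCI-H660, with medians of 0.25 and 0.11. The proteins of snoRNA particles had 3 of 8 lower in C4-2B, DKC1, NOP56 (−0.70) and NOP58 (−0.60), with a median of −0.19, and none called in NCI-H660. Among 11 assembly factors SHQ1 was lower in C4-2B (−0.67) and none was called in NCI-H660.

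Nonsense-mediated decay factors, whose targets include spliced host RNAs, had 1 of 10 lower in C4-2B and 1 of 10 higher in NCI-H660, close to the shares of all genes (8.12% and 7.18%). Both were UPF3B, a factor that links the exon junction complex to decay, at −0.59 (SE 0.11, edgeR adjusted p = 0.00289) and 0.67 (SE 0.11, edgeR adjusted p = 0.000351). The 10 factors had a median of −0.36 in C4-2B cells and of 0.32 in NCI-H660 cells. Regulators of TOP mRNAs, among them the mTORC1 subunits and LARP1, had 1 of 10 lower in C4-2B (EIF4EBP2, −0.58) and 1 of 10 higher in NCI-H660 (RPTOR, 0.56), with medians of −0.11 and 0.10. MYC, a paralog of MYCL, was at −0.44 (edgeR adjusted p = 0.00481) in C4-2B, under the minimum fold, and rose by 0.78 with shMYCL in NCI-H660 (edgeR adjusted p = 0.00198). The part of MYC in the host gene values was not tested.

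**Figure D5:**
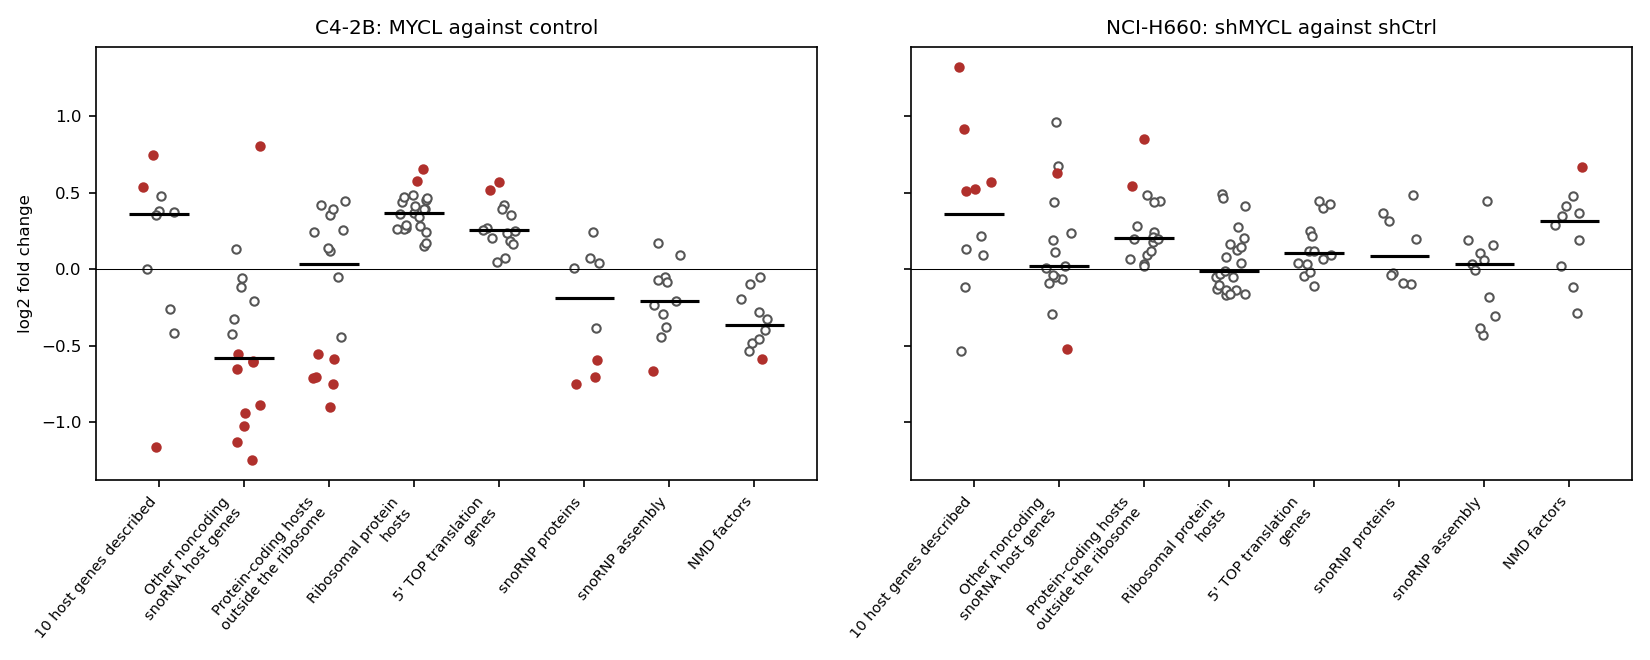
Log2 fold changes of the 10 host genes and of 7 gene lists in both within-line comparisons, with 1 point per gene, called genes in red, others open and a line at each list's median. Other noncoding hosts had a median of −0.58 with MYCL in C4-2B and 0.02 with shMYCL in NCI-H660.

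The snoRNAs of the members could not be followed. In GENCODE 44 no gene of snoRNA type lay inside GAS5 on its own strand, whereas each other member held at least 1. Of 34 snoRNA names 24 were found in the count table, in 30 rows, and all were at 0 in all 8 libraries, as were all but 20 of the 528 rows of snoRNA genes. A count of 0 allows up to 3 counts, and the poly(A) selection does not recover most snoRNAs, which lack a poly(A) tail.

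The genes whose pattern was most like the mean of the members were ranked by Pearson's r over the 8 libraries of log2 CPM, with each line's mean removed, among 5985 genes with a mean of at least 5 on the log2 CPM scale. They were STAT5B (0.98), TMEM54 (0.97), MICAL1 (0.97), EEF1A2 (0.96) and HMGA1 (0.96). Since each line's mean was removed, the 8 points are not independent, and r is a description. The members did not share a single pattern. On the same scale, r of a member with the mean of the others was highest for GAS5 (0.88) and SNHG5 (0.86). It was 0.18 for SNHG12, 0.05 for SNHG6 and −0.58 for EPB41L4A-AS1, so likeness to the mean is not likeness to each member. In NCI-H660 cells EEF1A2 (0.96), TMEM54 (0.80) and HMGA1 (0.77) were called higher with shMYCL, and none of the 5 was called in C4-2B cells.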

How the data were processed

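Poly(A)-selected, paired-end RNA-seq of 8 libraries was used, 4 conditions with 2 libraries each, grouped by the sample labels. The authors deposited expected counts per gene (unnormalized, build hg38), in which 51.3% of the members' values were not whole at a tolerance of 0.01, and TPM per gene, in a table of 65535 rows. The aligner and counter are not given in the sources used here. Counts were rounded and tested in edgeR 4.0.16 (R 4.3.3) with TMM normalization, filterByExpr and the quasi-likelihood test with Benjamini-Hochberg adjustment. Each line was fitted alone, and the control lines and the difference between lines came from a fit of all 8 libraries. Standard errors were derived from the fold change and the test statistic. Replicate spread, as biological coefficient of variation, was 0.0829 (C4-2B) and 0.0965 (NCI-H660). Members held 82.7 to 10869 counts in a library. An exact permutation test of 2 against 2 cannot go below p = 0.33.

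The members and lists were chosen with earlier results of these data known. From each other list, up to 3 called genes with the largest absolute fold change and a log2 CPM of at least 3 were named per line, together with all members, their neighbours, some markers, MYCL, MYC and the 5 most alike genes. The values of other host genes given among the other observations, of MYC and of genes sharing exon bases were chosen after they were seen. The tests were checked on simulated counts in which 200 genes had a true log2 fold change of 1, of which 83.5% were recovered in C4-2B (23 false calls), 80% in NCI-H660 (26), 74.5% between lines (16) and 62.5% for the difference between lines (15). The changed genes were drawn above a floor on counts. These rates do not give the power for members with smaller folds. In each comparison false calls were a larger share of the calls than the adjusted p threshold of 0.05.

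Alternatives were DESeq2 1.42.0, relative log expression (RLE) factors, other filters and thresholds, limma 3.58.1 on log2(TPM + 1) or log2(TPM + 0.1), filtered at 1 TPM in 2 libraries or unfiltered, a joint fit, a replicate block and leaving out each library. Deviations of same-numbered libraries correlated at 0.030 (C4-2B) and 0.047 (NCI-H660), so the numbers were not taken as pairs. Positions and overlaps came from GENCODE 44 and promoters from RefSeq. Some overlapping genes are not reported here. Python 3.11.15, pandas 2.3.3 and matplotlib 3.10.9 were used.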

Additional observations from a re-analysis of the deposited data

Results flagged for a closer look

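For 5 host genes the change with high against low MYCL differed between C4-2B and NCI-H660 cells by the test of the difference itself in edgeR. The size and kind of the MYCL change also differed between the lines and cannot be told apart from the line. The log2 differences (C4-2B minus NCI-H660) were 0.90 for GAS5, 0.88 for SNHG8, 0.69 for ZFAS1, 0.57 for SNHG5 and 0.50 for SNHG1, each with an adjusted p under 0.05 and the last under the minimum fold. Leaving out each library in turn gave 0.76 to 1.01 for GAS5, 0.77 to 0.99 for SNHG8, 0.57 to 0.78 for ZFAS1, 0.43 to 0.69 for SNHG5 and 0.32 to 0.68 for SNHG1. SNHG5 passed without 2 of the 8 libraries and lost its adjusted p under 0.05 without each of the other 6. On log2(TPM + 1) the differences of GAS5 (0.95) and ZFAS1 (0.54) still passed in limma, while those of SNHG8 (0.55), SNHG5 (0.29) and SNHG1 (0.30) did not.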

How the results depend on the processing

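In C4-2B cells the 3 members called became 8 with no minimum fold and 1 at a minimum of 1, and leaving out each library gave 3 to 5 (5 without C4-2B MYCL replicate 1, which added SNHG1 and ZFAS1). The 3355 calls over all genes became 5895, 1411 and, on unfiltered log2(TPM + 1), 1940. In NCI-H660 cells the 5 members became 1 at a minimum fold of 1, 2 on log2(TPM + 1) or log2(TPM + 0.1) and 0 on unfiltered log2(TPM + 1), where limma called 1 gene over all. The fit of all 4 groups called 6, EPB41L4A-AS1 lower among them. Leaving out each library gave 2 to 5, with 2 without shCtrl replicate 1 and 3 without either shMYCL library. Over all genes 2745 calls became 4204 with no minimum fold, 1022 at 1, 1737 in DESeq2, 1702 on log2(TPM + 1) and 1600 on log2(TPM + 0.1). Between the control lines 9 members were called in every alternative but a minimum fold of 1, which gave 8, and 13687 calls over all genes became 8512 with at least 10 counts in every library. For the difference between lines 4 members became 0 at a minimum of 1, 2 on log2(TPM + 1) or log2(TPM + 0.1) and 1 on unfiltered values, and 3513 calls became 1666 and 1898. The causes were not tested.

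Of 590 alternative values of single members, 512 kept direction and side of the threshold, 36 lost and 12 gained a call, and 30 changed sign. SNHG5 in C4-2B (0.00) was −0.0053 in DESeq2, −0.0050 in the joint fit, −0.021 without a filter, −0.063 on log2(TPM + 1), filtered or not, −0.065 on log2(TPM + 0.1) and −0.070 to 0.067 in leave-outs. SNHG6 in NCI-H660 was 0.035 on all 3 TPM settings, and SNHG29 was −0.10 to 0.28 in leave-outs. Between the control lines SNHG15 was 0.59 or 0.60 and ZFAS1 0.45 or 0.46 on TPM. For the difference between lines, SNHG15 was −0.014 on log2(TPM + 1) and −0.021 on log2(TPM + 0.1), SNHG12 was −0.076 to 0.42 in leave-outs, and EPB41L4A-AS1 was 0.013 in DESeq2, 0.014 with RLE factors, 0.012 with at least 10 counts and −0.070 to 0.057 in leave-outs.

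With the replicate number as a block, 3, 5, 9 and 4 members were called in the 4 comparisons, as without it, and no pairing was assumed. The block moved the calls over all genes to 3536, 2949, 13128 and 3576. Depth limits SNHG12, SNHG8 and EPB41L4A-AS1 most, which had the fewest counts in NCI-H660 libraries.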

Other observations

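Among the other noncoding hosts, DANCR was at 119.1 and 117.5 CPM in C4-2B control, 45.5 and 53.4 CPM with MYCL, 20.03 and 15.9 CPM in shCtrl and 18.8 and 16.3 CPM in shMYCL NCI-H660 libraries. Its change with high against low MYCL differed between the lines by −1.29 on the log2 scale (edgeR adjusted p = 0.000388). SNHG32, whose gene holds SNORD48 and SNORD52, went the other way, from 78.3 and 70.6 CPM to 128.3 and 131.5 CPM in C4-2B, with 173.5 and 213.6 CPM in shCtrl and 214.6 and 227.8 CPM in shMYCL libraries, a difference between the lines of 0.99 (edgeR adjusted p = 0.000569).

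SNHG14, the long transcript over the imprinted snoRNA clusters of the Prader-Willi region, was lower under both manipulations. It was at 334.4 and 321.3 CPM in C4-2B control and at 258.0 and 227.6 CPM with MYCL (log2 fold change −0.43, edgeR adjusted p = 0.00391), and at 118.4 and 94.9 CPM in shCtrl and 76.5 and 72.4 CPM in shMYCL libraries (−0.52, edgeR adjusted p = 0.00447). SNHG3 was at 169.8 and 156.2 CPM in C4-2B control and at 97.9 and 115.6 CPM with MYCL (−0.61, edgeR adjusted p = 0.00129), while in NCI-H660 libraries it stayed between 14.2 and 17.0 CPM (0.11, edgeR adjusted p = 0.608). SNHG4 was at 88.2 and 76.1 CPM in C4-2B control against 1.29 and 1.23 CPM in shCtrl NCI-H660 cells.

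HSPA8, whose introns hold SNORD14 copies, was at 2898 and 2594 CPM in C4-2B control, 1571 and 1761 CPM with MYCL, 1257 and 1124 CPM in shCtrl and 2073 and 2225 CPM in shMYCL libraries. The change with high against low MYCL differed between the lines by 0.13 (edgeR adjusted p = 0.557). For UPF3B the values were 36.8 and 35.9, 26.1 and 21.9, 84.3 and 81.5, and 124.1 and 139.8 CPM in the same order, with a difference between the lines of 0.07 (edgeR adjusted p = 0.811).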
